A study of Arabidopsis thaliana with 4 samples.

Results

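Shoot apices of as2-1 plants grown with a topoisomerase I inhibitor, 10H-CPT, were set against shoot apices of as2-1 plants grown with its solvent, DMSO. The comparison took 2 of the 4 arrays of the study, 1 for each condition. Of the 22746 probe sets on the array, 14243 entered, namely those whose larger signal of the as2-1 pair was above 46.6, a floor at the 40th percentile of the values that the 4 arrays hold together. The other 8503 probe sets were left out, 4 of them with a larger signal of exactly 46.6, and the lowest member just inside had 46.7. The as2-1 plants carry a mutant allele of Asymmetric Leaves2 (AS2) in the Col-0 background, and the other 2 arrays hold wild-type Col-0 with 10H-CPT and with DMSO. All 4 groups grew for 14 days on Murashige and Skoog agar in long days (16 hours light, 8 hours dark), and shoot apices with their leaf primordia were taken. The inhibitor, 10-hydroxyl camptothecin, was in the medium throughout growth as far as the labels say, and no dose is given. No replicate array exists for any group, so every value below comes from 1 array, no test was possible, and a change of at least 2-fold stands only for a size.

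Topoisomerase I nicks one DNA strand, lets the helix rotate and reseals the nick, which relieves the twist that builds up where DNA is transcribed or copied. Camptothecins hold the enzyme on the nicked strand. AS2 encodes a nuclear protein of plants that represses abaxial genes and class I KNOX genes in young leaves, and as2 mutants have altered leaf symmetry and polarity. The title of the series names the genes that AS2 and TOP1 regulate as its subject, and the as2-1 pair asks which transcripts differ when the mutant grows on the inhibitor.

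The 4 arrays were alike in level, with median signals of 86 to 88.3 and 13590 to 13709 probe sets above the floor of 46.6. Gene names were taken from a platform table that pairs 13513 probe sets with exactly 1 gene, and 7721 of these were measured in the as2-1 pair. The remaining 6522 measured probe sets had no single gene in that table, and those of AS2 and of the topoisomerase I genes were not analysed here. The labelled tissue was checked with marker lists of which few members could be followed. Leaf transcripts were bright, as LHCB4.1, a light-harvesting protein of photosystem II, had signals of 4100.6 on 10H-CPT and 4848.1 on DMSO in as2-1. The stem cell signal CLV3 and the boundary gene LAS, the 2 followed of 15 meristem and boundary genes, lay below the floor on all 4 arrays. So did EXPA7, the 1 followed of 11 root markers, and AGL42, the 1 followed of 15 floral genes. The meristem share of the tissue could therefore not be read from these markers, and in whole apices fewer cells of a type and less RNA per cell cannot be told apart.

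On the inhibitor, as2-1 had 422 probe sets (2.96%) with a gain of 2-fold or more and 327 (2.3%) with a loss of that size. Most transcripts differed little, since 12048 of the 14243 (84.6%) lay within 1.5-fold of each other and the median log2 ratio was -0.02, with an SD of 0.50 over probe sets. Among the higher probe sets the median change was 2.53-fold, 60 reached 4-fold and 8 reached 8-fold. Among the lower ones the median was 2.51-fold, 41 reached 4-fold and 7 reached 8-fold. With signals under the floor set to it, the largest change was 33.7-fold among the lower and 16.2-fold among the higher probe sets. For 53 of the higher and 70 of the lower probe sets the dimmer signal was at or under the floor. Signals under the floor were set to it, so such a ratio is written as at least N-fold. Of the 7721 probe sets with 1 gene, 190 (2.46%) were higher and 145 (1.88%) were lower, and these shares are the background for every count of genes in as2-1 below. The shares for Col-0 on 10H-CPT against Col-0 on DMSO were 1.24% higher and 1.55% lower, or 95 and 118 of 7636. Over 26 pathway and marker lists, 45 genes were measured, of which 10 were higher, in the flavonoid, cell wall, cold, iron, jasmonate and methionine glucosinolate lists, and 5 were lower, in the auxin, cell wall, clock and rapid stress lists. These lists too were chosen with earlier results of these data known. They are not independent of the values, and no excess over the background is read from this count.

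A measure of error inside the pair came from 46 genes that had several measured probe sets. The log2 ratios of such probe sets differed with an SD of 0.54, which corresponds to 0.38 for a single probe set, and 44 of the 46 genes had probe sets less than 2-fold apart. This spread covers the probes alone and leaves out the spread between plants and cultures. Ratios of the brightest probe sets of a gene followed each other weakly, with a Pearson r of 0.32 and a Spearman rho of 0.35. Most probe sets changed little, so being less than 2-fold apart is by itself no sign of agreement. In 4 of the 46 genes 1 probe set passed 2-fold, and in none did both. AT5G54130 gave at least 3.39-fold on one probe set, where its signals were 158.1 on 10H-CPT and 43.6 on DMSO, and stayed near the floor on the other. AT4G35335 gave 2.06-fold higher on one and a log2 ratio of -0.54 on the other. AT2G35450 and AT5G13030 were higher on both of their probe sets, and the brighter probe set stayed under 2-fold in each. At the floor of 46.6 the share past 2-fold differed little with brightness. With the measured probe sets divided into groups of equal size by mean signal, 3.24% of the dimmest, 2.51% of the middle and 3.14% of the brightest group were higher. Signals under the floor were set to it, which shrinks the ratios of dim probe sets, so these shares depend on the floor.

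**Figure D1:**
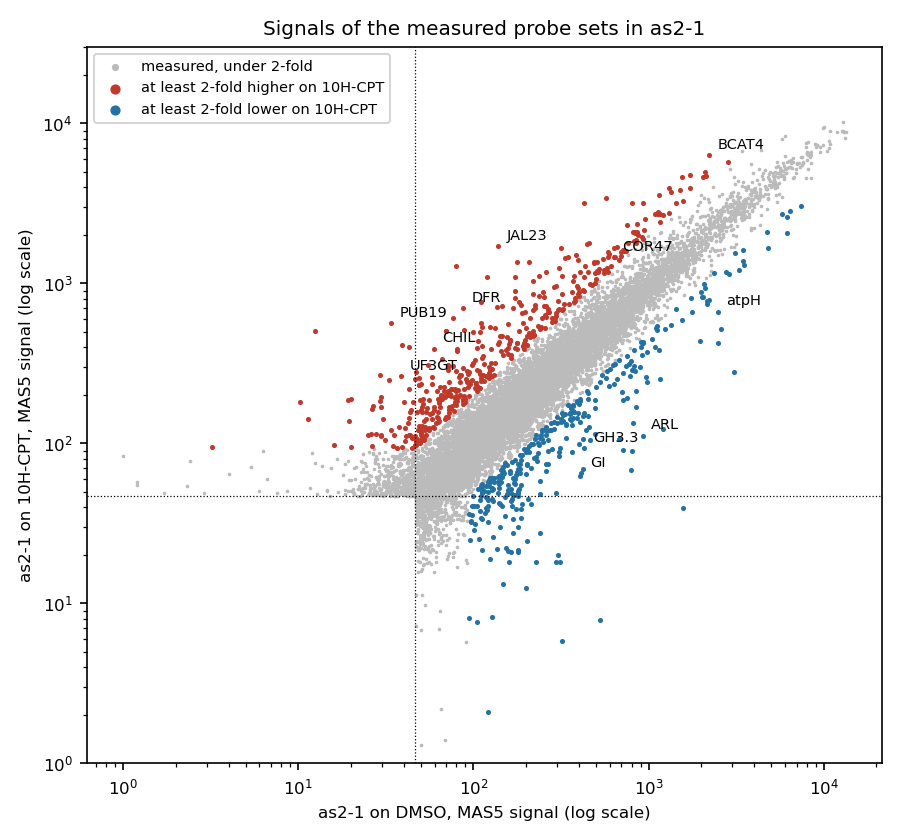
MAS5 signals of the 14243 measured probe sets in as2-1 on 10H-CPT (vertical, log scale) against as2-1 on DMSO (horizontal, log scale), 1 point per probe set, with dotted lines at the floor of 46.6 and signals under 1 drawn at 1. The 422 red and 327 blue points are at least 2-fold higher and lower after the floor, and most grey points follow the diagonal.

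Genes of the flavonoid and anthocyanin pathway were higher together in as2-1 on the inhibitor. Flavonoids are made from phenylalanine, and its anthocyanin branch gives the red and purple pigments of leaves and stems, after sugars and acyl groups are attached. Of 19 loci listed for the pathway 4 were measured, and in as2-1 all 4 passed 2-fold upwards on 10H-CPT, with a median log2 ratio of 2.43 against -0.02 over all measured probe sets. In Col-0 the median of the same 4 was 0.60, and 1 of the 4 passed 2-fold. A wider set of 7 flavonoid genes, compiled from names in the table after the values were seen, had 6 higher and a median of 2.35.

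DFR, the reductase that opens the anthocyanin branch, had signals of 697.9 on 10H-CPT and 87.2 on DMSO in as2-1, and of 176.4 on 10H-CPT and 61.6 on DMSO in Col-0. That is 8.00-fold higher on the inhibitor in as2-1 and 2.86-fold higher in Col-0. CHIL, a chalcone isomerase-like protein that raises the output of the pathway's first steps, had 391 on 10H-CPT and 59.6 on DMSO in as2-1, and 183.3 on 10H-CPT and 37.5 on DMSO in Col-0. Its changes were 6.56-fold in as2-1 and at least 3.93-fold in Col-0. In both genes the as2-1 array on 10H-CPT stood above the other 3.

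For genes of later steps the as2-1 array on 10H-CPT again had the highest signal. UF3GT, a glycosyltransferase that decorates anthocyanins, had 264.2 on 10H-CPT and 38.6 on DMSO in as2-1, against 68.8 and 47 on 10H-CPT and on DMSO in Col-0, and was at least 5.67-fold higher in as2-1. The locus AT4G14090, a member of the flavonoid list, had 338 on 10H-CPT and 66.4 on DMSO in as2-1, a 5.09-fold difference, while Col-0 had 96.4 on 10H-CPT and 63.7 on DMSO. UGT78D2, which adds glucose to flavonols and anthocyanidins, had 444.5 on 10H-CPT and 162 on DMSO in as2-1 (2.74-fold), and 185.9 on 10H-CPT and 121.8 on DMSO in Col-0. Each of these genes was under 2-fold higher in Col-0. AT5MAT, a malonyltransferase of anthocyanins, had 137.4 on 10H-CPT and 52.1 on DMSO in as2-1 (2.64-fold). UGT78D1, a rhamnosyltransferase that acts on flavonols, stayed under the threshold with 822.2 on 10H-CPT and 552.4 on DMSO in as2-1, a log2 ratio of 0.57. All 7 had a higher signal on 10H-CPT than on DMSO in both genotypes. The size of the change rests on dim DMSO signals: with a floor at the 60th percentile, 6 of the 7 stayed measured, 4 were past 2-fold and the median was 1.38.

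Of 7 measured genes for ER bodies and their lectins, 3 lectin genes were higher past 2-fold in as2-1. ER bodies are compartments of the endoplasmic reticulum in Brassicales that store the beta-glucosidase PYK10, and jacalin-related lectins join PYK10 in large complexes when cells break. JAL23, one of these lectins, had a log2 ratio of 3.62, the largest among probe sets with a single gene at this floor. With a floor at the 20th percentile, AT3G28220 at 5.33 and PUB19 at 4.06 stood above it, since both were bounds. Its signals were 1706 on 10H-CPT and 138.8 on DMSO in as2-1, and 877.5 on 10H-CPT and 327.6 on DMSO in Col-0, which is 12.3-fold higher in as2-1 and 2.68-fold higher in Col-0. On DMSO the as2-1 signal of JAL23 was the lowest of the 4.

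The other members of this group, again compiled after the values were seen, moved less. JAL33 had 2159.8 on 10H-CPT and 941.2 on DMSO in as2-1 (2.29-fold), and JAL22 had 1842.8 on 10H-CPT and 826.1 on DMSO (2.23-fold). JAL34, with 1919.8 on 10H-CPT and 1073.2 on DMSO in as2-1, and NAI2, a structural protein of ER bodies, with 1266.1 on 10H-CPT and 752.8 on DMSO, stayed under 2-fold. PYK10 itself had 5603.4 on 10H-CPT and 3826.4 on DMSO in as2-1, a log2 ratio of 0.55. Of the 7 members, 3 were past 2-fold and 6 had a log2 ratio above 0, with a median of 0.84 in as2-1 and 0.33 in Col-0. The exception was NAI1, the transcription factor for ER body formation, with 115.8 on 10H-CPT and 143.6 on DMSO in as2-1.

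Wall-loosening genes were split between both directions. Expansins loosen the bonds between cellulose and its matrix and let cells enlarge. Of 9 measured expansin genes, compiled after the values were seen, 4 were higher and 2 were lower past 2-fold in as2-1 on 10H-CPT. EXPA4 had 1286.4 on 10H-CPT and 609.2 on DMSO in as2-1 (2.11-fold), and 625.9 on 10H-CPT and 356.5 on DMSO in Col-0. EXPA15 had 1219.7 on 10H-CPT and 553.9 on DMSO in as2-1 (2.20-fold), and 592.8 on 10H-CPT and 257.6 on DMSO in Col-0 (2.30-fold). EXPB3 with 2.26-fold and EXPA20 with 2.06-fold completed the higher members. In each of these 4 genes the order of the arrays was the same at its ends, with as2-1 on 10H-CPT highest and Col-0 on DMSO lowest.

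The expansins that were lower on the inhibitor were dim ones. EXPA8 had 42.4 on 10H-CPT and 140.7 on DMSO in as2-1, at least 3.02-fold lower, while Col-0 had 150.5 on 10H-CPT and 136.6 on DMSO. EXLA1, an expansin-like gene, had 51.9 on 10H-CPT and 163.5 on DMSO in as2-1 (3.15-fold lower), and 118.6 on 10H-CPT and 309.1 on DMSO in Col-0 (2.61-fold lower). EXPA8 thus passed 2-fold in as2-1 and had a log2 ratio of 0.14 in Col-0, whereas EXLA1 passed 2-fold in both genotypes. Raising the floor to the 60th percentile left neither of the lower calls and all 4 higher ones. Of the 3 measured members of the cell wall list of 18 loci, EXPA4 and EXPA15 were higher and EXPA8 was lower.

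Other wall genes were called in small numbers. GH9C2, an endoglucanase-like protein, had 1568.1 on 10H-CPT and 693.9 on DMSO in as2-1 (2.26-fold higher), and 439 on 10H-CPT and 278.9 on DMSO in Col-0. GH9A3 of the same family was 2.13-fold higher in as2-1, and the other 4 of 6 measured family members stayed within 2-fold. TBL26 and TBL38, of the family of wall polysaccharide acetyltransferases, were at least 2.25-fold and 2.08-fold higher. Of 13 measured members of that family these 2 were the only ones past 2-fold, 8 were below 0 and the median log2 ratio was -0.24. CSLC04, which makes the glucan backbone of xyloglucan, had 121.3 on 10H-CPT and 439.4 on DMSO in as2-1 (3.62-fold lower), and 257.4 on 10H-CPT and 421 on DMSO in Col-0. XTH19, an enzyme that cuts and rejoins xyloglucan, was 2.24-fold lower in as2-1, the 1 past 2-fold of 4 measured genes for such enzymes. THE1, a receptor kinase that senses wall integrity, was 2.06-fold lower. The genes of this paragraph were picked from the called genes with a symbol after their values were seen.

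**Figure D2:**
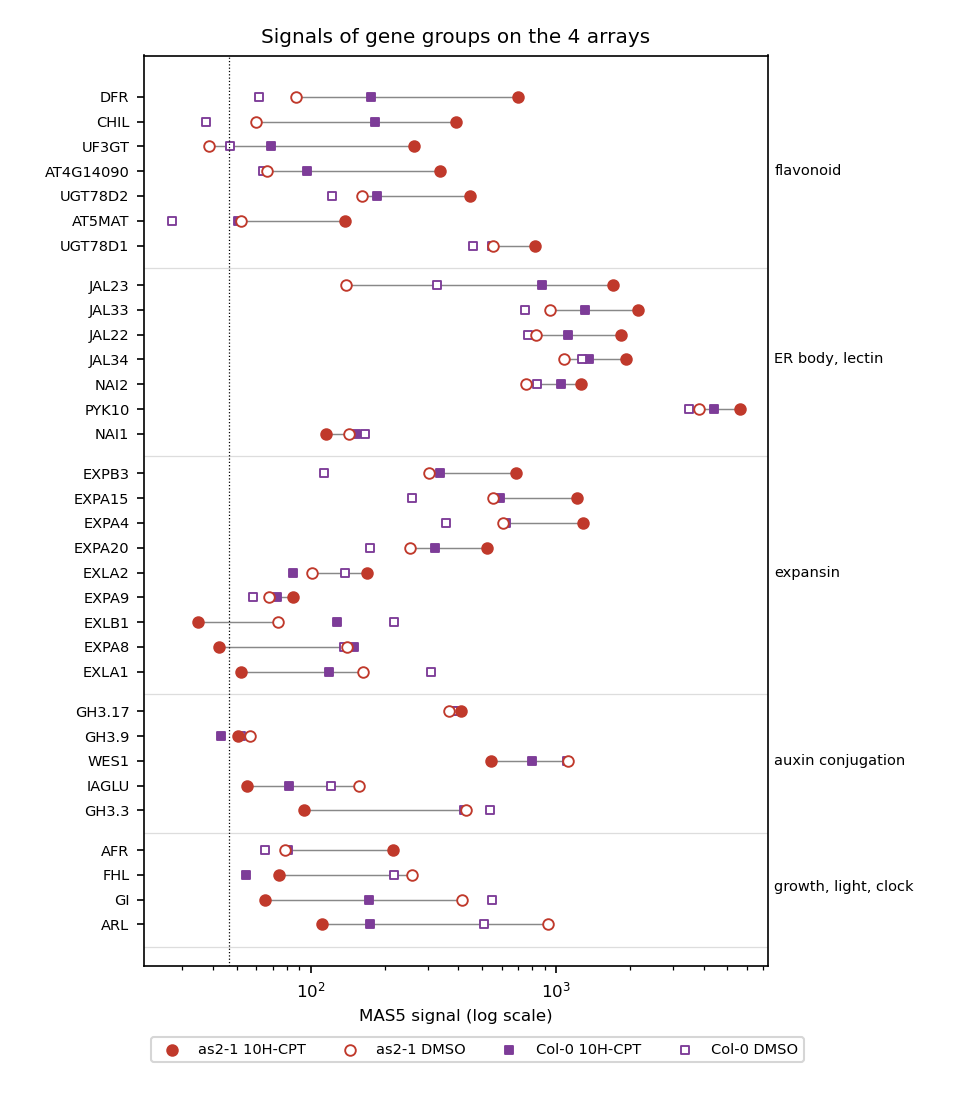
MAS5 signals (log scale) of 32 genes in 5 groups on the 4 arrays, with filled red circles for as2-1 on 10H-CPT, open red circles for as2-1 on DMSO, filled purple squares for Col-0 on 10H-CPT and open purple squares for Col-0 on DMSO. Grey lines join the as2-1 pair and the dotted line is the floor of 46.6, and the flavonoid genes have the as2-1 signal on 10H-CPT farthest to the right while ARL, GI and GH3.3 have it farthest to the left.

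Of 5 measured genes that conjugate auxin, 3 were lower past 2-fold in as2-1 on the inhibitor. Auxin induces GH3 enzymes, which join indole-3-acetic acid to amino acids, and the glucosyltransferase IAGLU joins it to glucose. GH3.3 had 93.7 on 10H-CPT and 430.5 on DMSO in as2-1, and 421.4 on 10H-CPT and 537.3 on DMSO in Col-0, so it was 4.59-fold lower in as2-1 and 1.28-fold lower in Col-0. WES1, also known as GH3.5, had 541.5 on 10H-CPT and 1113.9 on DMSO in as2-1 (2.06-fold lower), and 801.3 on 10H-CPT and 1112.6 on DMSO in Col-0. For both genes the 2 DMSO arrays and Col-0 on 10H-CPT lay above as2-1 on 10H-CPT.

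IAGLU had 55 on 10H-CPT and 157 on DMSO in as2-1 (2.85-fold lower), and 81.2 on 10H-CPT and 120.5 on DMSO in Col-0. GH3.17, with 409.2 on 10H-CPT and 365.7 on DMSO in as2-1, and GH3.9, with 50.6 on 10H-CPT and 56.6 on DMSO, did not pass 2-fold. Of these 5 conjugation genes, compiled after the values were seen, 3 were lower and none higher, with a median log2 ratio of -1.04 in as2-1 and -0.35 in Col-0. Of the 18 loci of the auxin response list only GH3.3 and WES1 were measured, and both were lower. WAG2, a kinase that acts on PIN auxin transporters, had 64.5 on 10H-CPT and 148.3 on DMSO in as2-1, 2.30-fold lower.

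ARL and GI were among the 15 lowest probe sets, and the other genes set beside them here were picked after their values were seen. ARL, an ARGOS-like protein that promotes cell expansion in leaves, had 111.6 on 10H-CPT and 923.9 on DMSO in as2-1, and 174.2 on 10H-CPT and 507.3 on DMSO in Col-0. It was 8.28-fold lower in as2-1 and 2.91-fold lower in Col-0, and its as2-1 signal on DMSO was the highest of the 4. CYP78A9, a cytochrome P450 that promotes growth of floral organs and fruit, had 41.7 on 10H-CPT and 190.6 on DMSO in as2-1, at least 4.09-fold lower. The CDK inhibitor SIM, which promotes endoreduplication in trichomes, stayed under the threshold with 267.7 on 10H-CPT and 446.3 on DMSO in as2-1.

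GI, a clock protein that also promotes flowering in long days, was the 1 measured member of 19 clock loci. It had 64.9 on 10H-CPT and 413.3 on DMSO in as2-1, and 173.3 on 10H-CPT and 548.4 on DMSO in Col-0, so it was 6.37-fold lower in as2-1 and 3.16-fold lower in Col-0. FHL, which carries phytochrome A into the nucleus, had 74.1 on 10H-CPT and 259.5 on DMSO in as2-1 (a log2 ratio of -1.81), and 54.6 on 10H-CPT and 219.2 on DMSO in Col-0 (4.01-fold lower). AFR, an F-box protein of far-red light signalling, went the other way, with 215.6 on 10H-CPT and 78.7 on DMSO in as2-1, 2.74-fold higher. The time of day of the harvests is not given, so a difference in harvest time and a difference between treatments cannot be told apart for GI.

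Several genes known from drought, cold and abscisic acid responses gave higher signals in as2-1 on 10H-CPT with little change in Col-0. PUB19, a U-box ubiquitin ligase of drought responses, had 566.2 on 10H-CPT and 34 on DMSO in as2-1 and lay far below the floor in Col-0, with 4.3 on 10H-CPT and 4.8 on DMSO. It was at least 12.2-fold higher in as2-1, and the other 4 of 5 measured U-box genes stayed under 2-fold. HIS1-3, a linker histone variant induced by drought, had 501.7 on 10H-CPT and 182.5 on DMSO in as2-1 (2.75-fold higher), and 135.1 on 10H-CPT and 145.9 on DMSO in Col-0. COR47, a dehydrin of cold-treated plants, had 1460.4 on 10H-CPT and 634.8 on DMSO in as2-1 (2.30-fold higher), and 425.1 on 10H-CPT and 403.2 on DMSO in Col-0. In these 3 genes the Col-0 signals differed by less than 1.5-fold or lay below the floor.

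Other genes of this kind were not past 2-fold upwards at the floor of 46.6. LEA4-5, a protein of the late embryogenesis abundant group, had 83.8 on 10H-CPT and 0.9 on DMSO in as2-1, and lay below the floor in Col-0. Its change of at least 1.80-fold is a bound set by the floor and may be larger. COR15A, which protects chloroplast membranes in the cold, had 179.6 on 10H-CPT and 112.5 on DMSO in as2-1, and 42.3 on 10H-CPT and 110.7 on DMSO in Col-0. COR15B stayed near its DMSO level, with 143.4 on 10H-CPT and 127.7 on DMSO in as2-1. LTI30, another dehydrin, was 2.05-fold lower in as2-1, with 120.4 on 10H-CPT and 246.7 on DMSO. APL3, a large subunit of the starch enzyme ADP-glucose pyrophosphorylase, had 333.1 on 10H-CPT and 170.5 on DMSO in as2-1, just under 2-fold, and 57.4 on 10H-CPT and 55.6 on DMSO in Col-0. Of 20 loci in the cold and abscisic acid list, 3 were measured and 1, COR47, was past 2-fold in as2-1. PUB19 was named by rank, whereas HIS1-3, LEA4-5, LTI30 and APL3 were picked after their values were seen.

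Of 6 measured thionin and defensin genes, which encode defence peptides, 3 were higher and 1 was lower past 2-fold in as2-1. THI2.1, a thionin, had 184 on 10H-CPT and 29.3 on DMSO in as2-1, at least 3.95-fold higher, and 157.9 on 10H-CPT and 127.9 on DMSO in Col-0. THI2.2 had 119.6 on 10H-CPT and 50.4 on DMSO in as2-1, 2.37-fold higher. PDF1.2, a defensin induced by jasmonate and ethylene, had 111.1 on 10H-CPT and 41 on DMSO in as2-1, and 209.1 on 10H-CPT and 49.7 on DMSO in Col-0. The PDF1.2 change was at least 2.38-fold in as2-1 and 4.21-fold in Col-0. LCR68, a brighter defensin-like gene, went the other way, with 997.8 on 10H-CPT and 2068.7 on DMSO in as2-1 (2.07-fold lower). Raising the floor to the 60th percentile left none of the higher calls among the 6 measured thionin and defensin genes, a set compiled after the values were seen.

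For a few genes the change was smaller in as2-1 than in Col-0, and their as2-1 signals on DMSO were already above those of Col-0. BCAT4, which starts the chain elongation of methionine for glucosinolates, had 6324 on 10H-CPT and 2212 on DMSO in as2-1, and 6468.2 on 10H-CPT and 401 on DMSO in Col-0. The change was 2.86-fold in as2-1 and 16.1-fold in Col-0. GSTU20, a tau class glutathione transferase, had 5755.8 on 10H-CPT and 2847.5 on DMSO in as2-1 (2.02-fold), and 5653.4 on 10H-CPT and 1017.1 on DMSO in Col-0 (5.56-fold). The locus AT1G47400, a member of the iron list, had 763.4 on 10H-CPT and 110.2 on DMSO in as2-1 (6.93-fold), and 929.1 on 10H-CPT and 44.6 on DMSO in Col-0. In these 3 genes the 2 arrays on 10H-CPT were within 1.5-fold of each other. PYE, a transcription factor of iron homeostasis, was under 2-fold in as2-1, with 117.3 on 10H-CPT and 72.7 on DMSO.

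Beyond these groups, loci without a symbol in the reference made up most of the strongest changes. AT3G28220 had 500.5 on 10H-CPT and 12.4 on DMSO in as2-1, at least 10.7-fold higher, and 106.9 on 10H-CPT and 38 on DMSO in Col-0. AT1G54020 had 1102.6 on 10H-CPT and 119.3 on DMSO in as2-1 (9.24-fold higher), and 615 on 10H-CPT and 241.9 on DMSO in Col-0. Both were also higher on the inhibitor in Col-0, by a smaller step. AT1G73600 was 5.22-fold, AT1G20070 5.19-fold and AT5G66650 4.99-fold higher in as2-1, from DMSO signals of 136, 172.4 and 99.8. AT4G28140, with 257.8 on 10H-CPT and 48.8 on DMSO in as2-1 (5.28-fold), and AT5G53710, with 268.9 on 10H-CPT and 29.2 on DMSO (at least 5.77-fold), lay below the floor on both Col-0 arrays. AT4G28290 closed the list of the 15 highest, at least 4.70-fold higher in as2-1 with 219.2 on 10H-CPT and 43.1 on DMSO.

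Among the 15 lowest, 12 had no symbol in the reference, and all 15 had lower signals on 10H-CPT in Col-0 too. AT5G20790 had 7.9 on 10H-CPT and 525.3 on DMSO in as2-1, at least 11.3-fold lower, and 43.9 on 10H-CPT and 761.6 on DMSO in Col-0. AT4G10270 had 89.1 on 10H-CPT and 802.1 on DMSO in as2-1 (a log2 ratio of -3.17), and 284.6 on 10H-CPT and 774 on DMSO in Col-0. AT4G27450, the brightest of them, had 421.3 on 10H-CPT and 2492.3 on DMSO in as2-1 (5.92-fold lower), and 977.3 on 10H-CPT and 2677.4 on DMSO in Col-0. AT4G33560, AT1G33055, AT2G04460 and AT1G19530 dropped below the floor on 10H-CPT in as2-1, with bounds of at least 6.89-fold, 6.73-fold, 4.88-fold and 4.33-fold. AT2G17850 was 6.43-fold, AT2G30540 5.03-fold, AT4G27280 4.45-fold and AT1G29270 4.35-fold lower. AT2G10940 had 251.6 on 10H-CPT and 1162 on DMSO in as2-1 (4.62-fold lower), and 1202.6 on 10H-CPT and 1666.4 on DMSO in Col-0, so its as2-1 signal on 10H-CPT stood alone below the other 3.

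Some further lower genes with a known role were picked after their values were seen. AT3G10040, for which the reference gives the synonym HRA1, hypoxia response attenuator, had 30.2 on 10H-CPT and 179.6 on DMSO in as2-1 (at least 3.85-fold lower), and 63.5 on 10H-CPT and 199.8 on DMSO in Col-0. CML38, a calmodulin-like protein, had 31.2 on 10H-CPT and 102.6 on DMSO in as2-1 (at least 2.20-fold lower), and 20 on 10H-CPT and 175.8 on DMSO in Col-0. AT5G61590, with the synonym DEWAX, a repressor of cuticular wax synthesis, was 3.80-fold lower in as2-1 and 2.47-fold lower in Col-0. OSM34, an osmotin-like protein, had 25.9 on 10H-CPT and 128.6 on DMSO in as2-1, at least 2.76-fold lower, and at least 5.71-fold lower in Col-0. These 4 genes were thus at least 2-fold lower on the inhibitor in both genotypes.

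Beta-glucosidases, which split sugars from defence compounds and wall phenolics, gave 3 lower genes and none higher among 11 measured. BGLU33 had 209.9 on 10H-CPT and 707.6 on DMSO in as2-1 (3.37-fold lower), and 284.8 on 10H-CPT and 671.5 on DMSO in Col-0. BGLU28 had 21.6 on 10H-CPT and 179.3 on DMSO in as2-1, at least 3.85-fold lower, and BGLU47 was at least 2.30-fold lower from 107 on DMSO. The set was compiled after the values were seen, and its median log2 ratio was -0.35 in as2-1 and -0.37 in Col-0. ATSPS4F, a sucrose phosphate synthase, had 61 on 10H-CPT and 168 on DMSO in as2-1 (2.75-fold lower), and 59.4 on 10H-CPT and 127.5 on DMSO in Col-0.

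The measured topoisomerase genes and the listed DNA repair genes stayed within 2-fold in as2-1, as most genes did. Over all measured probe sets with 1 gene, 2.46% were higher and 1.88% lower. No call is thus the usual outcome for sets this small. TOPII, topoisomerase II, had 329.6 on 10H-CPT and 301.2 on DMSO in as2-1, and TOP3A, which unlinks recombining strands, had 109.9 on 10H-CPT and 91.3 on DMSO. The third measured topoisomerase locus, AT2G32000, had 141.7 on 10H-CPT and 161.4 on DMSO. Of 29 loci listed for the DNA damage response 2 were measured: ATLIG4, the ligase of end joining, had 99.2 on 10H-CPT and 111.8 on DMSO in as2-1, and ATMND1, a meiotic recombination protein, had 100 on 10H-CPT and 59.2 on DMSO. Among 10 measured DNA repair and recombination genes compiled from the table none passed 2-fold, and the log2 ratios ran from -0.45 to 0.76 with 5 on each side of 0. DRT100, a leucine-rich repeat protein named for DNA damage toleration, was 2.61-fold lower in as2-1, with 591.7 on 10H-CPT and 1542.7 on DMSO, and was picked after its value was seen. The damage markers most used in plants, such as those of homologous recombination and the SMR inhibitors, were not analysed here.

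Measured cell division genes likewise stayed within 2-fold. For the small sets of this paragraph that is the usual outcome at the background of 2.46% higher and 1.88% lower. AUR2, an Aurora kinase, had 171.2 on 10H-CPT and 121 on DMSO in as2-1, and 210.6 on 10H-CPT and 107.8 on DMSO in Col-0. ICU2, the catalytic subunit of DNA polymerase alpha, had 103.2 on 10H-CPT and 62.8 on DMSO in as2-1, and PRL, the replication helicase subunit MCM7, had 243.9 on 10H-CPT and 204.1 on DMSO. None of 8 measured mitosis genes and none of 11 measured subunits of nuclear RNA polymerases passed 2-fold, with medians of 0.07 and 0.01. Of 11 histone and chromatin genes HIS1-3 was the 1 past 2-fold, and the core histone HTB2 had 720.6 on 10H-CPT and 596.5 on DMSO in as2-1. Among 7 tubulins, which build microtubules, none passed 2-fold. TUB6 had 1073.6 on 10H-CPT and 2138.3 on DMSO in as2-1, and TUB1 and TUB5 were close behind it with log2 ratios of -0.89 and -0.84. After quantile normalization 1 tubulin passed 2-fold.

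Leaf polarity genes, the class in which as2 mutants are known to differ, showed no change past 2-fold among the 4 measured of 20 listed. At the background of 2.46% higher and 1.88% lower, 4 genes without a call do not stand out from other genes. The abaxial genes YAB3, with 227.7 on 10H-CPT and 180.1 on DMSO in as2-1, and YAB5, with 137.6 on 10H-CPT and 114.4 on DMSO, were slightly higher. PHV, an adaxial transcription factor, had 409 on 10H-CPT and 443.9 on DMSO in as2-1, and 640.3 on 10H-CPT and 489.8 on DMSO in Col-0. AGO7, the Argonaute that starts the small RNA pathway against abaxial ARF genes, came nearest to the threshold, with 70.3 on 10H-CPT and 136.8 on DMSO in as2-1, and 88.4 on 10H-CPT and 69 on DMSO in Col-0. Its as2-1 signal on DMSO was the highest of the 4, and its log2 ratio was -0.96 in as2-1 and 0.36 in Col-0.

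**Figure D3:**
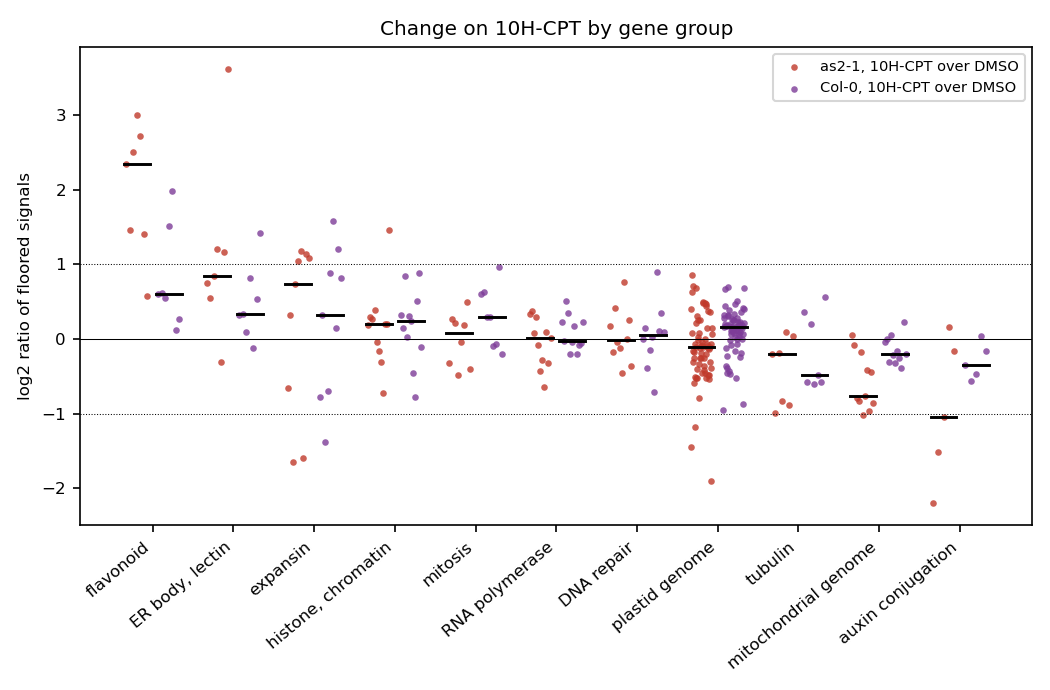
Log2 ratios of floored signals, 10H-CPT over DMSO, for the measured probe sets of 11 gene groups, with red points for as2-1 and purple points for Col-0, black bars at the medians and dotted lines at 2-fold. Flavonoid genes sit above 0 with a median of 2.35 in as2-1, auxin conjugation genes have a median of -1.04, and the DNA repair, mitosis and RNA polymerase groups stay between the dotted lines.

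Transcripts of the organelle genomes were measured by 66 plastid and 11 mitochondrial probe sets. Of the plastid ones 3 (4.55%) were lower past 2-fold in as2-1 on 10H-CPT and none was higher. The gene atpH, for the membrane ring of the ATP synthase, had 665.9 on 10H-CPT and 2483.9 on DMSO in as2-1 (3.73-fold lower), and 1179.4 on 10H-CPT and 2150.5 on DMSO in Col-0. The photosystem I gene psaC had 81.5 on 10H-CPT and 223 on DMSO in as2-1 (2.74-fold lower), and the cytochrome b6f gene petL had 177.4 on 10H-CPT and 401.5 on DMSO (2.26-fold lower). The plastid genes as a whole lay near 0, with a median log2 ratio of -0.11 in as2-1 and 0.16 in Col-0.

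Of the 11 mitochondrial probe sets 1 was lower past 2-fold, 10 had log2 ratios below 0, and the group had a median of -0.77 in as2-1 and -0.21 in Col-0. It was the cytochrome c biogenesis gene ccb452 that passed 2-fold, with 267.4 on 10H-CPT and 540.7 on DMSO in as2-1. Close to it, cox1, a subunit of cytochrome oxidase, had 356.7 on 10H-CPT and 695.1 on DMSO in as2-1, and nad4, a subunit of complex I, had 1102.1 on 10H-CPT and 1909.6 on DMSO. Some of these probe sets can match several transcripts, and without those the median was -0.45 over 9 probe sets with none past 2-fold.

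The same probe sets were then read in the wild-type pair, which shares no array with the as2-1 pair. There the inhibitor went with a gain of 2-fold or more in 217 probe sets (1.54% of 14091) and with a loss of that size in 296 (2.1%). Of the 422 probe sets higher in as2-1, 387 were measured in Col-0, where 107 of them were higher past 2-fold, 188 changed by less than 1.5-fold and the median log2 ratio was 0.54, against 1.33 in as2-1. Of the 327 lower in as2-1, 324 were measured in Col-0, where 136 were lower past 2-fold, 119 changed by less than 1.5-fold and the median was -0.86, against -1.33 in as2-1. The members were chosen by their as2-1 values, so a smaller median in Col-0 comes in part from the choice itself.

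Genes with a symbol in the reference showed the same split. Of 36 higher in as2-1, 8 were also at least 2-fold higher in Col-0, and 31 had the smaller change in Col-0. Of 32 lower in as2-1, 10 were also at least 2-fold lower in Col-0, and 29 had the smaller change there. JAL23, DFR, CHIL, EXPA15, EXPB3, PDF1.2, BCAT4 and GSTU20 were the 8 higher in both. PUB19, HIS1-3, COR47 and scpl30, a serine carboxypeptidase-like gene with 180.7 on 10H-CPT and 10.2 on DMSO in as2-1, were past 2-fold in as2-1 and within 1.5-fold or below the floor in Col-0. PUB19, scpl30, TBL26 and, among the lower genes, BGLU47 lay below the floor on both Col-0 arrays. Their Col-0 ratio of 0 comes from the floor, yet they are counted above as having the smaller change in Col-0. No difference between the genotypes was tested, as each rests on 4 single arrays.

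**Figure D4:**
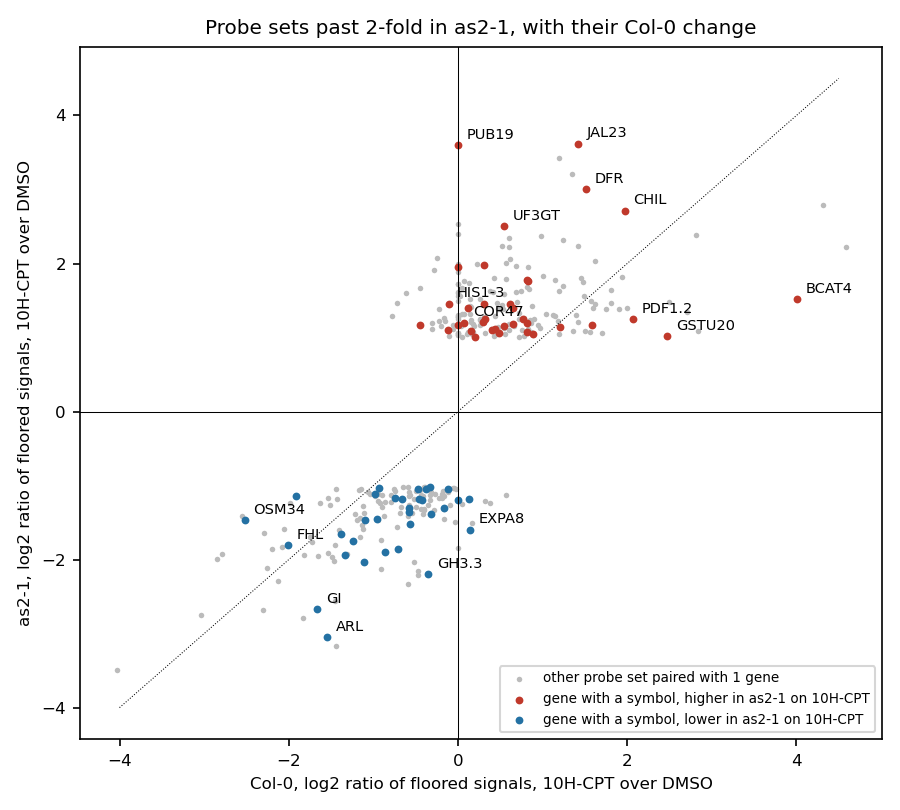
Log2 ratios, 10H-CPT over DMSO, in as2-1 (vertical) against Col-0 (horizontal) for the 190 higher and 145 lower probe sets that have 1 gene, with genes that have a symbol in red and blue, the dotted line where both changes are equal, and a Col-0 ratio of 0 where both Col-0 signals are under the floor. PUB19 lies on the vertical axis, BCAT4, GSTU20 and PDF1.2 lie to the right of the dotted line, and most points lie closer to 0 in Col-0 than in as2-1.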

How the data were processed

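Each of the 4 samples was measured on 1 Affymetrix array from biotinylated cRNA, per the labels' protocols. The deposited values are linear signal intensities of the probe sets, which the authors made with MAS5, per the submitters' processing notes. Its version, its scaling target and any detection calls were not given in the sources used here. MAS5 sets mismatch against perfect-match probes, so dim signals give noisy ratios. The trimmed means of the 4 arrays lay between 198.3 and 198.5, so the intensities were used without rescaling. Depth has no counterpart on arrays, and the number of arrays limits the precision.

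Signals below the floor of 46.6 (40th percentile) were set to it, and log2 ratios of 10H-CPT over DMSO were taken within each genotype. A threshold of 2-fold was used and no test, as each group has 1 array. Nothing in the labels says whether samples came from separate cultures. The members and all lists were chosen with earlier results of these data known. Probe sets were named from the platform table (14016 probe sets, 503 with several genes). Of its 13513 probe sets with a single gene, 13436 matched the reference table (assembly TAIR10.1) by gene identifier. In all, 26 lists of 453 loci were set up, of which 62 loci had a probe set of their own and 45 were measured (10 higher, 5 lower). Further sets were compiled from the named genes after values were seen. Genes named by rule were the 15 highest and 15 lowest probe sets with 1 gene, leaving out identifiers ending in _s_at or _x_at, up to 4 called genes per list, and the topoisomerase and polarity genes. Gene length, planned as a property to compare, was not analysed here. The counting was run on simulated data without noise, with changes set only in probe sets far above the floor. That run checks the arithmetic, and it says nothing on calls near the floor or on the error of single arrays. The tools were matplotlib 3.10.9, numpy 2.4.6, statsmodels 0.14.6, pandas 2.3.3, scipy 1.17.1 and Python 3.11.15.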

Additional observations from a re-analysis of the deposited data

Results flagged for a closer look

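Some genes and probe sets changed by at least 1.5-fold in opposite directions on 10H-CPT in the 2 genotypes, and none of these differences was tested. COR15A had a log2 ratio of 0.67 in as2-1, with signals of 179.6 on 10H-CPT and 112.5 on DMSO, and was at least 2.38-fold lower in Col-0, with 42.3 on 10H-CPT and 110.7 on DMSO. WRKY53, a transcription factor of leaf senescence, had 0.93 in as2-1, with 198.9 on 10H-CPT and 104.1 on DMSO, and was at least 1.66-fold lower in Col-0, with 35.7 on 10H-CPT and 77.2 on DMSO. EXLA2, an expansin-like gene, had 0.74 in as2-1, with 168.9 on 10H-CPT and 101.2 on DMSO, and -0.70 in Col-0, with 85 on 10H-CPT and 138.2 on DMSO. These are not the only genes that met the limit, and other loci met it with larger changes in as2-1. For example, AT1G21000 was 2.76-fold higher in as2-1 and 1.64-fold lower in Col-0. AT1G43910 was 2.45-fold higher in as2-1 and 1.72-fold lower in Col-0.

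Past 2-fold in both genotypes, 5 of the 13747 probe sets measured in both pairs went opposite ways, all higher in as2-1 and lower in Col-0, and none of the 5 had a single gene in the platform table. They are given by identifier and were picked after their values were seen. The probe set 266142_at had 1284.5 on 10H-CPT and 79.4 on DMSO in as2-1, a log2 ratio of 4.02 or 16.2-fold. That was the largest gain of all measured probe sets at the floor of 46.6, where the ratios of dimmer ones are bounds. The largest loss was greater, at 33.7-fold. In Col-0 the probe set 266142_at had 113 on 10H-CPT and 270.5 on DMSO, 2.39-fold lower. The probe set 253872_at had a log2 ratio of 1.57 in as2-1, with 463.7 on 10H-CPT and 156.3 on DMSO, and -1.71 in Col-0, with 53.7 on 10H-CPT and 175.9 on DMSO. For 253161_at the log2 ratio was 1.22 in as2-1, a lower bound from 45.2 on DMSO, and -2.11 in Col-0. For 262226_at it was 1.21 in as2-1 and -1.82 in Col-0. For 250054_at it was 1.10 in as2-1 and -1.33 in Col-0, an upper bound from 43.1 on 10H-CPT.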

How the results depend on the processing

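Rescaling to a common trimmed mean, quantile normalization, loess within the pair and the removal of probe sets ending in _s_at or _x_at kept the counts of higher and lower probe sets, of list genes and of probe sets called in both genotypes within 1.5 times, while single calls in the sets compiled after values were seen came and went. None of the 30 genes named by rank changed sign under any setting run. Among the 8 list medians, neither of the 2 past 2-fold changed sign, but both moved with the floor. The cell wall median fell from 1.08 to 0.21 under the 20th percentile floor, and the flavonoid and anthocyanin median from 2.43 to 1.38 under the 60th. Under the 60th percentile floor the median of the topoisomerase genes was -0.03, against 0.13, and that of the dark-inducible genes 0.47, against -0.03. The floor and the threshold moved the counts. With a floor at the 20th percentile (9.9), 754 probe sets were higher and 811 lower, and 188 and 238 were so in both genotypes. With a floor at the 60th percentile (137.4), 235 were higher and 151 lower, 58 were lower in both genotypes, 3 list genes were lower, and 24 of the 30 genes stayed past 2-fold. At 1.5-fold, 1122 were higher and 1073 lower, 354 and 433 in both genotypes, with 18 list genes higher and 9 lower. At 3-fold, 133 were higher and 94 lower, 23 and 38 in both genotypes, with 4 list genes higher and 3 lower. The share of higher among called probe sets was 56.3%, 48.2% with the low floor and 60.9% with the high one. No replicate could be left out and no paired analysis was possible because each group has 1 array. Every bound moves with the floor.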

Other observations

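Families of genes that share a name root and had at least 5 measured members were mostly near 0 in as2-1. Of 31 such families, 20 had no member past 2-fold and 4 had a median log2 ratio beyond 0.5 in either direction: EXPA at 1.04, BGLU at -0.60, the mitochondrial NAD genes at -0.77 and TUB at -0.84. Glycosyltransferases named UGT, which attach sugars to small molecules, had 2 of 21 measured members higher and a median of -0.09. Carboxypeptidase-like SCPL genes had 1 of 15 higher, and IQD genes, for calmodulin-binding proteins at microtubules, had 1 of 12 lower, IQD18, with 9 of 12 below 0. Ubiquitin-specific proteases named UBP had none past 2-fold and 11 of 12 below 0, with a median of -0.15 in as2-1 and 0.16 in Col-0. Their as2-1 ratios ran from -0.38 to 0.22, about the size of the SD of 0.38 for a single probe set.

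The SWEET sugar transporters had 3 measured members, all with positive log2 ratios and none past 2-fold. SWEET11, which exports sucrose from leaf phloem parenchyma, had 100.9 on 10H-CPT and 56.6 on DMSO in as2-1, and SWEET17, a fructose transporter of the vacuole, had 648.5 on 10H-CPT and 409.3 on DMSO. AAH, which frees ammonium from a purine breakdown product, was 3.40-fold higher in as2-1, with 294.7 on 10H-CPT and 86.8 on DMSO. AOR, which detoxifies reactive carbonyls, was 2.62-fold higher, with 524.7 on 10H-CPT and 199.9 on DMSO. CCS, the copper chaperone of superoxide dismutase, was 2.27-fold lower in as2-1, with 49.2 on 10H-CPT and 111.5 on DMSO. QQS, a regulator of carbon and nitrogen allocation, had 385.3 on 10H-CPT and 454 on DMSO in as2-1, and 62.5 on 10H-CPT and 34.7 on DMSO in Col-0.

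Called genes were spread over the nuclear chromosomes, with 1.99% to 2.91% of measured genes higher and 1.47% to 2.14% lower on each of the 5. Across 2381 pairs of genes that are next to each other in the reference order and were both measured, the log2 ratios in as2-1 had a Spearman rho of 0.097, and of 0.022 in Col-0. At 2 places apart rho in as2-1 was 0.021 over 2229 pairs, at 5 places it was 0.052 and at 10 places -0.0036, both over 2143 pairs. All genes of a pair share the same 2 arrays. In 5 of the 2381 adjacent pairs both genes were higher past 2-fold in as2-1, and in none were both lower. Pairs 2 places apart gave the same count of both higher, 5 of 2229. At 5 places it was 3 and at 10 places 1, each of 2143, so the count was not particular to direct neighbours. The 5 adjacent pairs were AT1G64370 with AT1G64380, AT1G73390 with AT1G73400, AT3G22540 with AT3G22550, and AT4G30450 with AT4G30460, which in turn paired with AT4G30470. Of those 3 neighbours, AT4G30470 had the largest log2 ratio, 1.97, and all 3 had ratios between 0.55 and 0.69 in Col-0.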
